A study of Mus musculus with 4 samples.

Results

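Primary-granule myeloid precursors were picked out of 4 single-cell libraries of mouse bone marrow by their transcripts for the first set of granule proteins that a myeloid cell makes. A cell barcode was kept when it had at least 500 genes and at most 10% mitochondrial UMIs (unique molecular identifiers, each standing for 1 captured RNA molecule). A kept barcode was counted as a precursor when Elane, Mpo and Prtn3 together gave at least 20 UMIs, Ltf, Camp and Ngp together stayed under 2% of its UMIs, Cdh5 was at 0 and Cxcl12 was under 20 UMIs. Of 19134 kept cells, 350 met this rule. They comprised 81 cells from the non-irradiated control, 144 from the non-irradiated Vegfc-deleted library, 8 from the irradiated control and 117 from the irradiated Vegfc-deleted library. Values are given in that order throughout unless a sentence names its libraries.

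All mice were of the C57Bl/6JCrl strain with both copies of Vegfc floxed. Vegfc encodes a growth factor of lymphatic and blood vessels. Controls were Vegfc flox/flox, and Vegfc-deleted mice additionally carried RosaCreERT2, a Cre recombinase at the ubiquitously active Rosa26 locus that tamoxifen switches on in any cell type. Tamoxifen was given in 5 doses at 7 to 8 weeks of age, and total body irradiation of 4 Gy followed 2 weeks afterwards, with marrow taken 7 days after that. The labels give tamoxifen for both genotypes in 1 place and for part of the samples in another. They also speak of 3 irradiated animals of each genotype but of 2 pooled for sequencing. Each library came from 1 pool, of 3 mice without and 2 mice with irradiation. The sort took live cells lacking lineage markers, CD45 and Ter119, whereas the precursors belong to the CD45-bearing blood lineage. Their shares therefore describe the blood cells that passed the gate in each preparation, not the marrow.

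The neutrophil and monocyte lineages share early precursors in the marrow. At the promyelocyte stage these cells fill their primary, or azurophil, granules with the serine proteases neutrophil elastase (Elane), proteinase 3 (Prtn3) and cathepsin G (Ctsg) and with myeloperoxidase (Mpo). Transcription of these genes stops as cells mature, and neutrophil precursors then make secondary granules with lactoferrin (Ltf) and the cathelicidin precursor (Camp). The transcription factors Cebpe and Gfi1 mark the step towards neutrophils, and Irf8 and Klf4 the step towards monocytes. Basophils, a rarer granulocyte, carry their own proteases, Mcpt8 and Prss34.

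The promoters of the 4 granule enzymes are shown because these genes define or mark the cells and lie in only 3 places of the genome. In mouse build GRCm38, Prtn3 (chromosome 10, 79874476 to 79883174) and Elane (chromosome 10, 79886247 to 79888215) are neighbours on the plus strand with 3072 bases between them. Mpo lies on chromosome 11 (87793581 to 87804413, plus strand) and Ctsg on chromosome 14 (56099881 to 56102574, minus strand). Mcpt8 lies 14607 bases from Ctsg on the same strand. The RefSeq windows below (GRCm38.p6, 250 bases before to 50 bases after the start) are written 5′ to 3′ along the gene, at chr10:79886062-79886361 (Elane, plus strand), chr10:79879417-79879716 (Prtn3, plus), chr11:87793534-87793833 (Mpo, plus) and chr14:56102525-56102824 (Ctsg, minus). The Prtn3 window lies wholly inside the gene span given above, which comes from GENCODE, so it is not upstream of that span. Capitals mark the core AGGAAG of PU.1, the ETS-family factor of myeloid cells, on either strand.
Elane: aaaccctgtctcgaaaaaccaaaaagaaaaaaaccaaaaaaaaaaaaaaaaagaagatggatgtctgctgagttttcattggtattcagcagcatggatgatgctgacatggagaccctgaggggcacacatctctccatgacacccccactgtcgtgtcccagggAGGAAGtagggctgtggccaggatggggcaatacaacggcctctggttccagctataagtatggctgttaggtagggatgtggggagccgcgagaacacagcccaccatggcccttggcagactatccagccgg
Prtn3: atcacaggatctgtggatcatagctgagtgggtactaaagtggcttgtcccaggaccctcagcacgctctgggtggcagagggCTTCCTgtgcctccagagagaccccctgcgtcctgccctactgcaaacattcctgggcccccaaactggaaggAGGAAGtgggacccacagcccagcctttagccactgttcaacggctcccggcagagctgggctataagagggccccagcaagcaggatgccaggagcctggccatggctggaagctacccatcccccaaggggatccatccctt
Mpo: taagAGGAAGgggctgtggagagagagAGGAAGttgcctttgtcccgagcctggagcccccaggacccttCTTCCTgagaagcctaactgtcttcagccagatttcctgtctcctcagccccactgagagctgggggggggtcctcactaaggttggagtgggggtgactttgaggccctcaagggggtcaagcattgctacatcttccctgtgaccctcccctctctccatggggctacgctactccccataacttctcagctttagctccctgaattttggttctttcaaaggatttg
Ctsg: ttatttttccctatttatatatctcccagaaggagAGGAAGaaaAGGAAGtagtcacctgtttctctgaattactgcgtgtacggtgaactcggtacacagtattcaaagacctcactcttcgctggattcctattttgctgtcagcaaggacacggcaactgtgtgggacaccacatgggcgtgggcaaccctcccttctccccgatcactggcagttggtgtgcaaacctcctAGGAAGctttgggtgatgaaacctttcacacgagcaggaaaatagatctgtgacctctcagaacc
The core occurred 1 time in the Elane window, 2 times in Prtn3, 3 times in Mpo and 3 times in Ctsg, and 35.4% of 32851 promoter windows of this length held it at least once. The CEBP motif TTGCNNAA, searched on both strands, was found in none of the 4 windows and in 10.8% of all windows. These matches are letters in a window, not measured binding sites.

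The libraries held 54462123 to 77284922 UMIs over 5134 to 7737 barcodes, and 3975 to 5537 barcodes were kept per library with medians of 7881 to 10073 UMIs. The precursors were much richer in RNA, with medians of 29710, 30165, 42324.5 and 38149 UMIs and 4899, 5081, 5676.5 and 5456 genes per cell. Vegfc itself was measured in LepR+ stroma, the perivascular support cells of the marrow, at 150, 16.3, 141 and 16.4 counts per 1000000 UMIs (CPM), and gave 1, 0, 0 and 0 UMIs in the precursors. Between 17 and 39 kept barcodes per library also occurred in another library, and of the precursors this was 0, 1, 0 and 1 cell. With 1 library per group, cells of a library share its source, no test was made, and every interval is a 95% interval of counting error alone. Differences between mice or preparations are not measured by it.

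Summed over the precursors of a library, Elane stood at 3827, 7452, 4411 and 6068 CPM, Prtn3 at 4184, 7323, 5143 and 9141 CPM, and Mpo at 3392, 3465, 3172 and 3228 CPM. These 3 genes chose the cells, so the values only describe them: Mpo was nearly level across libraries, while Elane and Prtn3 were highest in the Vegfc-deleted libraries. Single cells varied far more than libraries. The 3 genes together had a lowest, median and highest value of 22, 132 and 2455 UMIs in non-irradiated control cells. They had 20, 180.5 and 2570 UMIs in non-irradiated Vegfc-deleted cells, 20, 91 and 1528 in irradiated control cells, and 21, 800 and 2036 in irradiated Vegfc-deleted cells. The median cell of the irradiated Vegfc-deleted library thus held the most granule transcripts, at 2.05% of its UMIs against 0.516%, 1.16% and 0.293% in the others.

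Markers that the rule does not use were present in most of the cells. Ctsg was present at 2517, 2578, 1792 and 2891 CPM and had a UMI in 96.3%, 95.8%, 87.5% and 94.9% of the precursors. In erythroid cells, which should lack it, Ctsg stood at 4.74, 5.38, 0.367 and 1.00 CPM, with a UMI in 2.27%, 5.35%, 0.396% and 0.962% of cells at median depths of 7111, 7568, 9022 and 7579.5 UMIs. Ms4a3, a membrane protein of granulocyte and monocyte progenitors, was at 601, 876, 879 and 1407 CPM. Cst7, the protease inhibitor cystatin F, was at 173, 190, 197 and 202 CPM. Both lay at or below 4.69 CPM in the erythroid cells of every library.

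The genes with the highest mean level in precursors over all other kept cells, outside the rule, began with Ctsg (83.1-fold), Dmkn (81.9-fold), Kcnk12 (53.3-fold), Ms4a3 (33.6-fold), Prss57 (31.1-fold) and Cst7 (25.4-fold). Since the cells were selected by expression, this is only a description of the selected cells. Prss57, a further granule serine protease, stood at 116, 165, 163 and 242 CPM. Dmkn, the gene of dermokine, a secreted protein best known from skin, stood at 46.0, 87.5, 120 and 194 CPM. It was lower in secondary-granule neutrophils, at 1.95, 10.6, 14.4 and 5.82 CPM. Dmkn was thus higher in precursors than in those neutrophils in all 4 libraries. The rest of the 15 were Nrg1, Plac8, Cpa3, Nkg7, Ramp1, Cd34, Gm1604a, Gria3 and Gfi1, at 20.5-fold to 10.4-fold. Cpa3 came mainly from precursors with basophil transcripts, at 3645, 4480, 5423 and 6155 CPM. In the other precursors it stood at 71.1, 28.7, 0 and 0 CPM.

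The label did not hold for every cell. A subset carried basophil transcripts in quantity: 23 of 81, 6 of 144, 2 of 8 and 5 of 117 precursors had 20 or more UMIs of Mcpt8 and Prss34. These were 28.4% (18.9 to 39.5, exact binomial) of the precursors in the non-irradiated control and 4.17% and 4.27% in the non-irradiated and irradiated Vegfc-deleted libraries. The split was sharp, because only 1, 0, 0 and 3 precursors had 5 to 19 such UMIs. In these cells Elane was nearly missing in the non-irradiated control, at 84.8 CPM against 4806 CPM in its other precursors. Mpo remained at 2066 CPM against 3739 CPM, and Ctsg was higher, at 3821 CPM against 2176 CPM. They entered the class mainly through Mpo.

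**Figure D1:**
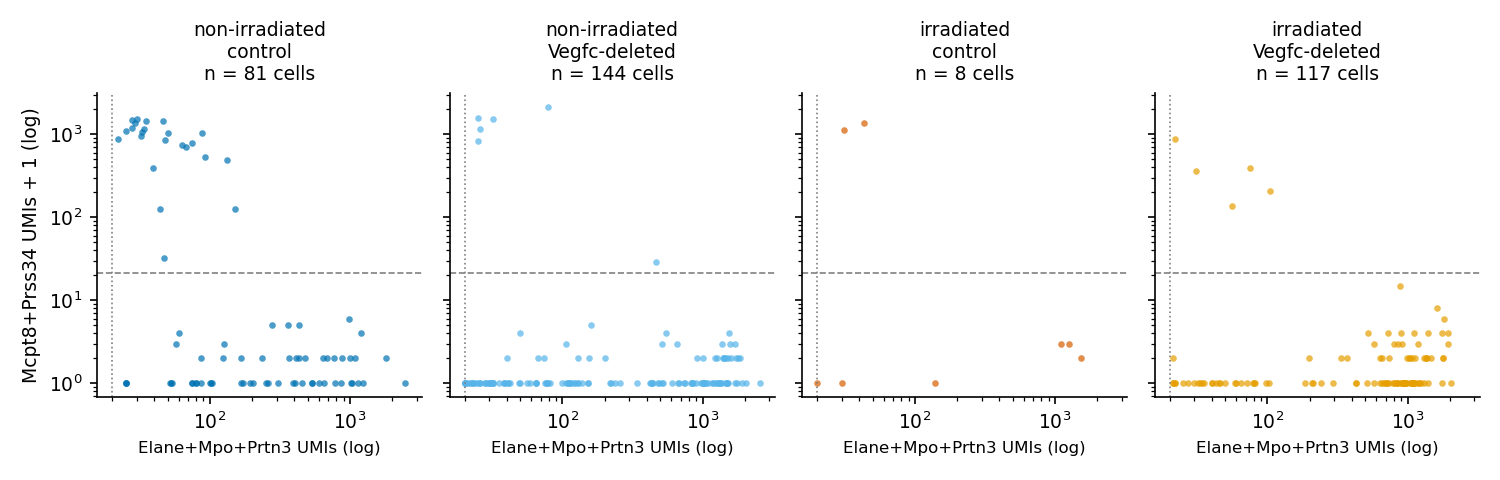
Each point is 1 precursor, with Elane, Mpo and Prtn3 UMIs on the horizontal log axis and Mcpt8 and Prss34 UMIs plus 1 on the vertical log axis, 1 panel per library. The dotted line marks the floor of 20 granule UMIs and the dashed line 20 basophil UMIs; 23, 6, 2 and 5 cells lie above the dashed line, nearly all of them low in granule UMIs.

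The basophil-gene precursors were a small part of the basophil-gene cells in the libraries, of which there were 184, 20, 30 and 23 among the kept cells. Precursors made up 12.5%, 30.0%, 6.67% and 21.7% of them. Within the non-irradiated control, the basophil-gene precursors differed from the other basophil-gene cells in more than Mpo. Kit, the stem cell factor receptor, was at 48.2 CPM against 3.22 CPM, and the chemokine Ccl3 was at 488 CPM against 8736 CPM. Cpa3, mast cell carboxypeptidase, was at 3645 against 2805 CPM. Over all precursors, the 8 basophil and mast cell markers summed to 9782, 1999, 9262 and 697 CPM, with none of the 8 at 0 in any library. Where leaving out the basophil-gene cells changed the direction of a list median printed below, or moved it by more than 1.5 times, the value without them stands beside it.

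Eosinophil transcripts appeared in quantity in 3 cells. Prg2, the eosinophil granule major basic protein, gave 1, 1181, 0 and 102 UMIs, of which 712 and 459 came from 2 cells of the non-irradiated Vegfc-deleted library and 100 from 1 cell of the irradiated one. The homologue Prg3 gave 2, 212, 0 and 22 UMIs. Prg2 headed the genes that were higher in Vegfc-deleted precursors under both irradiation states, and 3 cells gave nearly all of it. Of the other marker lists, the 8 endothelial markers summed to 71.98, 35.6, 52.3 and 23.6 CPM and the 8 LepR+ stromal markers to 79.2, 47.9, 144 and 34.0 CPM. Markers of the B lineage summed to 261, 247, 123 and 113 CPM, and those of T and NK cells to 377, 535, 446 and 715 CPM. Nkg7, a protein of cytotoxic granules, gave nearly all of the latter, at 377, 533, 446 and 708 CPM, while the T cell gene Cd3e was at 0 in each library. Markers of monocytes and macrophages were the most abundant of these 5 lists, at 1566, 2927, 2681 and 2581 CPM. Haemoglobin transcripts summed to 5190, 5738, 148 and 87.7 CPM, that is, they were higher in the precursors of both non-irradiated libraries, where erythroid cells were also more frequent. The part of these transcripts in any result was not tested.

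The cells just inside the floor were few and mixed. With 20 to 24 granule UMIs there were 1, 12, 1 and 6 cells, in which Ctsg stood at 4040, 127, 0 and 1002 CPM. Just outside, with 15 to 19 granule UMIs, there were 8, 4, 2 and 11 cells with Ctsg at 4624, 412, 516 and 1027 CPM. At 1000 UMIs or more there were 9, 41, 3 and 37 cells with Ctsg at 4286, 4281, 2873 and 4195 CPM. Cells with abundant granule transcripts thus had like Ctsg levels in 3 libraries, and the lowest Ctsg levels lay near the floor in the non-irradiated Vegfc-deleted and irradiated control libraries. In the former, 29 precursors had under 10000 UMIs, against 2, 0 and 2 in the others. Elane transcripts were also found in 14.8% of the erythroid cells of that library, against 3.53%, 0.792% and 2.88% in the others; the part of free RNA in the cells near the floor was not tested. A further 12, 37, 14 and 80 cells met the floor but were left out by their secondary granule share.

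The first comparison asked how frequent the precursors were in each group. They made up 1.505% of kept cells (1.20 to 1.87) in the non-irradiated control, 2.60% (2.20 to 3.05) in the non-irradiated Vegfc-deleted library, 0.201% (0.0869 to 0.396) in the irradiated control and 2.76% (2.29 to 3.30) in the irradiated Vegfc-deleted library. Irradiated controls thus had a 7.48-fold lower share than non-irradiated controls (3.62 to 17.9). In Vegfc-deleted mice the share with irradiation was 1.06 times that without (0.824 to 1.36), an interval that includes 1. The share in Vegfc-deleted mice was 1.73-fold (1.31 to 2.30) that of controls without irradiation and 13.7-fold (6.74 to 32.5) with it. Without the basophil-gene cells these genotype ratios were 2.31 (1.69 to 3.2) and 17.5, and without cells under 10000 UMIs the ratio in non-irradiated mice was 1.26.

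**Figure D2:**
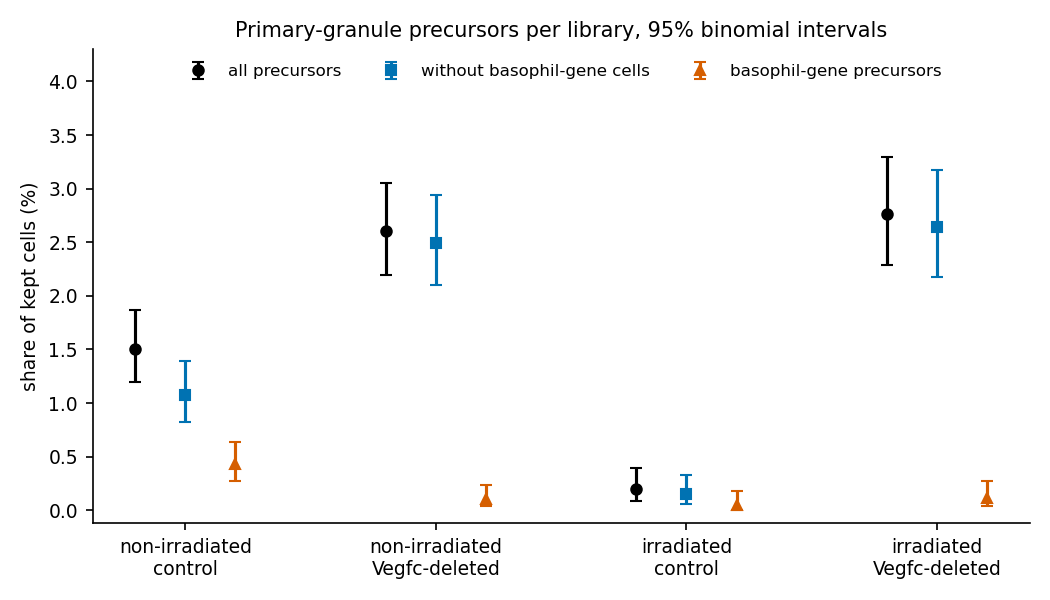
Share of precursors among kept cells (%, vertical axis) in the 4 libraries, for all precursors, for those without basophil genes and for the basophil-gene precursors alone; bars are exact 95% binomial intervals. The irradiated control has the lowest share of all precursors, 0.201%, and the Vegfc-deleted libraries have 2.60% and 2.76%.

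A share depends on what else was captured. Erythroid cells were 38.5%, 35.8%, 12.7% and 7.36% of kept cells, and with them left out the precursors were 2.45%, 4.05%, 0.231% and 2.98% of the rest. On that base irradiation went with a 1.36-fold lower share (1.06 to 1.75) in the Vegfc-deleted and a 10.6-fold lower share in the control pair. More mature myeloid cells had another pattern. Secondary-granule neutrophils, with at least 2% of UMIs from Ltf, Camp and Ngp, were 1.26%, 5.003%, 1.91% and 20.5% of kept cells, and monocytes were 1.30%, 2.40%, 2.39% and 14.7%. Among these 3 myeloid classes together the precursors held 37.0%, 26.0%, 4.47% and 7.27%. By this measure irradiated controls had an 8.28-fold lower precursor share than non-irradiated ones, and irradiated Vegfc-deleted mice a 3.58-fold lower share (2.78 to 4.6). Both irradiated libraries therefore had fewer precursors per mature myeloid cell, and fewer precursors cannot be told apart from more mature cells in these shares.

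Because only 8 cells stand behind the irradiated control, they are given singly. Their granule UMIs were 1251, 1528, 43, 1098, 139, 30, 20 and 31. The same cells had 473, 620, 0, 298, 37, 1, 3 and 3 UMIs of Elane and 161, 108, 75, 193, 2, 8, 0 and 36 of Ctsg. Only the 3 cells with over 1000 granule UMIs were rich in both transcripts. Those 3 also had 1821, 2479 and 1571 UMIs of S100a8, a calcium-binding protein of maturing neutrophils and monocytes. The cells with 43 and 31 granule UMIs were basophil-gene cells. A doublet score marked 2 of the 8 cells, and the basophil markers of this library depended on them, as given under the dependence on processing. Cd34 had no UMI in any of the 8, and Mki67, a protein of dividing cells, had 11 to 43 UMIs in all of them. Summed levels of the granule genes in this library rest on the 3 rich cells.

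To describe how the precursors vary, each cell was thinned to 3000 UMIs and scored for genes of the neutrophil side (Fcnb, Gfi1, Cebpe, Lcn2, Chil3) and of the monocyte side (Irf8, Klf4, Ly86, Csf1r, F13a1), with 3 or more UMIs counting as that side. Cells on the neutrophil side were 5, 18, 2 and 47, which is 6.17%, 12.5%, 25% and 40.2% of the precursors. Cells on the monocyte side were 28, 43, 1 and 26, or 34.6%, 29.9%, 12.5% and 22.2%. The 23, 6, 2 and 5 basophil-gene cells and the 2, 12, 0 and 1 cells under 3000 UMIs were set aside, but they stay in the base of these shares. Basophil-gene cells were 28.4% of that base in the non-irradiated control, and 4.17% and 4.27% in the non-irradiated and irradiated Vegfc-deleted libraries. Of the remaining cells, neither side was reached by 23, 59, 2 and 26, and both by 0, 6, 1 and 12. The non-irradiated control thus had more cells on the monocyte side and the irradiated Vegfc-deleted library more on the neutrophil side. Lcn2, 1 of the neutrophil-side genes, stood at 578 CPM in the erythroid cells of the irradiated Vegfc-deleted library against 51.6 to 73.1 CPM in those of the others. With Lcn2 left out of the score, the neutrophil side held 5, 18, 1 and 37 cells and the monocyte side 28, 43, 1 and 27. The sides are ranges of a score and not types: of the neutrophil-side cells, 2, 7, 1 and 19 lay within 1 UMI of the threshold of either score. Of the 6 cells on both sides in the non-irradiated Vegfc-deleted library, 1 held 4251 UMIs of the haemoglobin gene Hbb-bs.

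**Figure D3:**
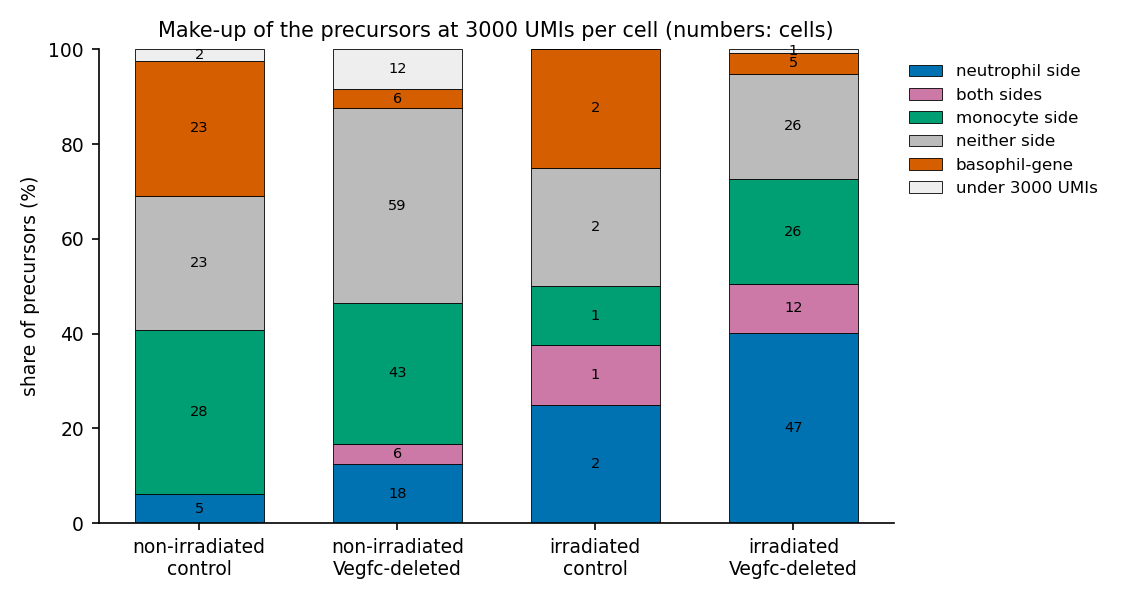
Make-up of the precursors in each library (% of precursors, vertical axis), by neutrophil-side and monocyte-side genes at 3000 UMIs per cell; numbers in the bars are cells. The neutrophil side holds 5, 18, 2 and 47 cells, and the monocyte side 28, 43, 1 and 26. Basophil-gene cells and cells under 3000 UMIs are classes of their own.

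Granule transcripts are given by side as a description only, since Elane, Prtn3 and Mpo selected the cells, and the irradiated control has 2 cells on the neutrophil and 1 on the monocyte side. Elane on the neutrophil side stood at 17612, 18271, 8650 and 9524 CPM, and on the monocyte side at 1430, 1883, 90.5 and 828 CPM. Prtn3 was at 13702, 15778, 10166 and 12566 CPM on the neutrophil side and at 3414, 3120, 513 and 3362 CPM on the monocyte side. Mpo was at 6833, 5323, 5927 and 4660 CPM against 2742, 1741, 0 and 1064 CPM. Ctsg, which neither the rule nor the scores use, was at 3271, 3228, 2836 and 3500 CPM on the neutrophil side and at 1549, 1373, 0 and 907 CPM on the monocyte side. All 4 transcripts thus stood higher on the neutrophil side in each library. S100a8 was at 34911, 39144, 38160 and 35414 CPM within the neutrophil side, within 1.5-fold of each other in all 4 libraries. On the monocyte side it was at 24.3, 129, 90.5 and 795 CPM, below its 860, 895, 1211 and 4830 CPM in erythroid cells.

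Genes that the precursors share with stem and multipotent progenitors were lower with irradiation. Cd34, a surface sialomucin of progenitors, stood at 166, 75.2, 0 and 8.51 CPM. Irradiated Vegfc-deleted precursors had an 8.83-fold lower level (6.33 to 12.6). For controls the irradiated level was at least 18.0-fold lower, against a floor of 3 counts for the library at 0. Sox4, a transcription factor of immature cells, stood at 232, 77.6, 9.22 and 10.7 CPM and was 7.26-fold lower (5.37 to 10.0) in irradiated Vegfc-deleted precursors. Kit stood at 71.2, 42.7, 12.3 and 18.98 CPM, and Flt3, a receptor of early multipotent cells, at 26.4, 14.3, 3.07 and 0.436 CPM. All 4 genes were also lower in Vegfc-deleted than in control precursors without irradiation: Cd34 by 2.21-fold (1.91 to 2.56), Sox4 by 2.99-fold (2.61 to 3.42), Kit by 1.67-fold (1.35 to 2.05) and Flt3 by 1.84-fold (1.29 to 2.64). At an equal depth of 3000 UMIs, Cd34 had a UMI in 26.6%, 20.5%, 0% and 5.17% of precursors, against 67.9%, 45.8%, 0% and 16.2% without thinning. Taken as 3 counts of the total, the count of 0 of 8 cells allows up to 37.5% of cells with a Cd34 UMI at this depth, and it sets no limit on cells expressing the gene.

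Cd34 and Sox4 were also compared within the sides. On the neutrophil side Cd34 was nearly missing everywhere, with 2, 2, 0 and 2 UMIs, and the ratio of irradiated to non-irradiated Vegfc-deleted cells was 0.324 (0.0235 to 4.47), an interval that includes 1. Sox4 had 7, 6, 0 and 4 UMIs there, a ratio of 0.216 (0.0448 to 0.911). On the monocyte side Cd34 was at 223, 75.8, 0 and 18.3 CPM, 4.14-fold lower (2.52 to 7.19) in irradiated than in non-irradiated Vegfc-deleted cells. In cells of neither side it was at 210, 104, 0 and 7.71 CPM, 13.5-fold lower (7.20 to 28.7). Sox4 stood at 224, 86.1, 0 and 6.11 CPM on the monocyte side and at 309, 95.4, 18.5 and 18.5 CPM in cells of neither side. On the monocyte side and in cells of neither side the non-irradiated control was highest, and each irradiated library was lower than its non-irradiated counterpart.

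**Figure D4:**
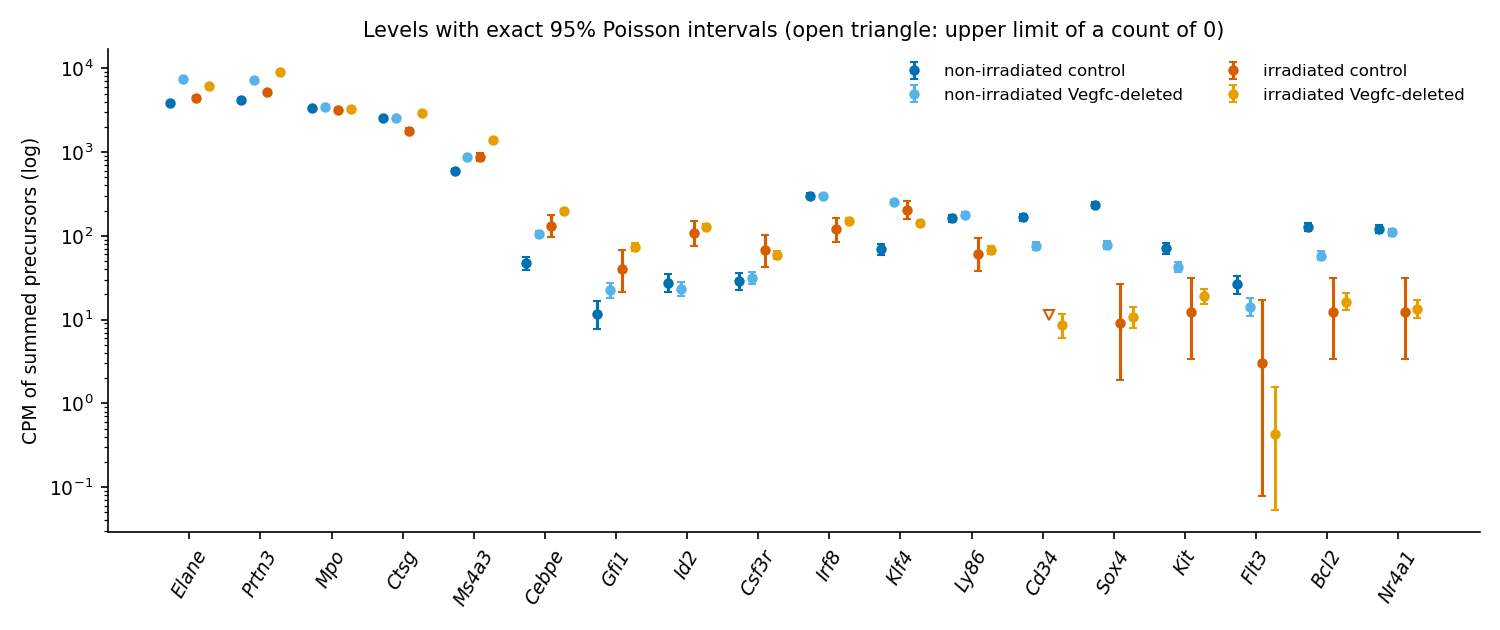
Levels of 18 genes in the summed precursors of each library (CPM, log axis) with exact 95% Poisson intervals; the open triangle is the upper limit for Cd34, at 0 counts in the irradiated control. Mpo is nearly level at 3172 to 3465 CPM, while Cd34, Sox4, Bcl2 and Nr4a1 lie lower and Gfi1 and Id2 higher in both irradiated libraries.

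Across genes, 12.8% of the 4910 tested were at least 1.5-fold higher or lower with irradiation in Vegfc-deleted precursors (6.66% higher, 6.17% lower), and 36.1% of 4220 in controls (22.5% higher, 13.6% lower), where 8 cells form the irradiated side. Tested genes had a mean of at least 25 CPM and an expected count of at least 10 in both libraries. The median log2 ratio over all tested genes was 0.05 and 0.10. Of 16 stem and multipotent progenitor genes, 7 passed this filter, and 5 of them were lower and none higher in each of the irradiation contrasts, with medians of -1.17 in Vegfc-deleted mice and -1.91 in controls. Cd34, Sox4, Kit and Ikzf2 were among the 5 both times. Without basophil-gene cells the Vegfc-deleted median of the same 7 genes was -3.22, with 5 lower and none higher, and it was -1.19 when the filter was applied anew. The control median without them was -3.38, with 6 of the 7 lower, and it was -2.29 when the filter was applied anew. Monocytes of the same libraries had medians of -0.36 for these genes in Vegfc-deleted mice and -1.92 in controls (6 of 7 lower), the latter close to the precursors. LepR+ stroma, erythroid cells and secondary-granule neutrophils had medians of -0.83, -0.67 and -0.64 in Vegfc-deleted mice. In each of them 4 of the 7 genes were lower, and 2, 1 and 1 were higher. Their medians in controls were -1.14, -0.57 and -0.17.

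The 8 lowest genes in both irradiation contrasts outside the rule genes were Cd34, Nr4a1, Pde4b, Sox4, Cd93, Ikzf2, Bcl2 and Gm10076. Nr4a1, an orphan nuclear receptor induced by stimulation, stood at 120, 110, 12.3 and 13.5 CPM. Bcl2, the survival protein, stood at 127, 58.0, 12.3 and 16.4 CPM and was 3.54-fold lower (2.73 to 4.64) in irradiated than in non-irradiated Vegfc-deleted precursors. Ikzf2, a zinc finger factor of the Ikaros family, stood at 110, 32.9, 27.7 and 7.20 CPM. Cd93, a surface protein of immature blood cells, stood at 120, 105, 12.3 and 23.1 CPM. For Nr4a1, Bcl2 and Cd93 both non-irradiated libraries lay above both irradiated ones by a wide margin, while for Ikzf2 the non-irradiated Vegfc-deleted library lay close to the irradiated control. Ikzf2 was also carried by basophil-gene cells, and without them its log2 ratio in Vegfc-deleted mice was -3.98 in place of -2.17.

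The 8 highest were Id2, Gfi1, Gca, Rflnb, Ceacam1, Tmem2, Neu1 and Mcm3ap. Id2, an inhibitor of basic helix-loop-helix factors, stood at 27.6, 23.5, 108 and 129 CPM and was 5.49-fold higher (4.45 to 6.82) with irradiation in Vegfc-deleted mice and 3.90-fold higher (2.52 to 5.94) in controls. Gfi1, a repressor required for neutrophil formation, stood at 11.6, 22.4, 39.96 and 72.9 CPM, 3.26-fold (2.60 to 4.11) and 3.45-fold (1.64 to 6.84) higher. In the irradiated control, 12 Gfi1 UMIs came from the 2 neutrophil-side cells and 1 from the cells of neither side. Gca, grancalcin, stood at 12.0, 26.0, 86.1 and 83.1 CPM, and the lysosomal sialidase Neu1 at 32.4, 36.9, 89.1 and 101 CPM. Erythroid cells held at most 22.4 CPM of Id2 and 9.37 CPM of Gca, both in the irradiated Vegfc-deleted library. At an equal depth of 3000 UMIs Gfi1 had a UMI in 5.06%, 6.06%, 25% and 21.6% of precursors, against 24.7%, 33.3%, 37.5% and 62.4% without thinning. The 2 irradiated libraries were the higher ones for each of these genes.

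Among other genes of primary granules and promyelocytes none was 1.5-fold lower with irradiation, although Ctsg stood lower in irradiated than in non-irradiated controls, at 1792 against 2517 CPM. Of 15 listed, 13 passed the filter, and 4 were higher in irradiated Vegfc-deleted precursors (Cebpe, Gfi1, Ms4a3, Serpinb1a) with none lower and a median of 0.30, or 0.47 without basophil-gene cells, where 6.66% of all tested genes were higher. The same 13 genes had larger medians in other cells of these libraries, 1.73 in erythroid cells (11 higher, 2 lower) and 1.19 in LepR+ stroma (7 higher, 1 lower), and the part of free RNA was not tested. In controls 6 were higher and none lower, with a median of 0.55, or 10 higher and 0.81 without basophil-gene cells, where 22.5% of all tested genes were higher. Cebpe, the factor of the step to secondary granules, stood at 46.8, 105, 132 and 196 CPM, and Serpinb1a, an inhibitor of the granule proteases, at 301, 439, 686 and 746 CPM. Ctsc, which activates the granule proteases, stood at 59.2, 155, 200 and 215 CPM. For these 3 genes the non-irradiated control was lowest and the irradiated Vegfc-deleted library highest. On the neutrophil side, whose score uses Cebpe, it stood at 391 CPM in non-irradiated and 345 CPM in irradiated Vegfc-deleted cells. Ms4a3 stood at 2001 and 1931 CPM there. In cells of neither side Cebpe stood at 112 and 185 CPM and Ms4a3 at 1255 and 2064 CPM. Csf3r, the receptor of the neutrophil growth factor G-CSF, stood at 28.8, 31.8, 67.6 and 59.1 CPM and was higher in both irradiated libraries. The GM-CSF receptor chain Csf2rb stood at 71.2, 59.3, 138 and 120 CPM, with the same split.

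Genes of secondary and tertiary granules need the level of free RNA beside them. Ltf, Camp and Ngp were limited by the rule. Of 18 other such genes, 12 passed the filter. With irradiation 8 were higher in Vegfc-deleted precursors (median 1.28), against 6.66% of all tested genes. In controls 12 were higher (median 2.26, or 2.24 with a gene at 0 set to 3 counts), against 22.5%. In the erythroid cells of the same Vegfc-deleted libraries the median of the 12 granule genes was 2.32 and in LepR+ stroma 1.77. Lcn2, neutrophil gelatinase-associated lipocalin, was at 19.99, 37.4, 326 and 514 CPM in precursors and at 61.0, 73.1, 51.6 and 578 CPM in erythroid cells. Its level in the irradiated Vegfc-deleted precursors did not exceed that background. S100a8 was at 3172, 6225, 22486 and 17845 CPM in precursors against 860, 895, 1211 and 4830 CPM in erythroid cells. Summed over all precursors, S100a8 was therefore above background in each library, though not on the monocyte side. The part of free RNA in its difference was not tested.

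Monocyte genes differed in direction between contrasts. Of 16 listed, 15 passed, and 6 were lower and none higher with irradiation in Vegfc-deleted precursors (Csf1r, Irf8, Klf4, Ly86, Ms4a6c, Nr4a1; median -0.55). In controls 7 were higher and 5 lower. Over all tested genes, 6.66% were higher and 6.17% lower with irradiation in Vegfc-deleted precursors, and 22.5% and 13.6% in controls. Irf8, the factor of monocyte and dendritic cell fate, stood at 301, 296, 120 and 151 CPM and was 1.95-fold lower (1.78 to 2.15) in irradiated Vegfc-deleted precursors. On the monocyte side Irf8 stood at 594 CPM in non-irradiated and 424 CPM in irradiated Vegfc-deleted cells. In cells of neither side it stood at 118 and 22.4 CPM. Ly86, a partner of a Toll-like receptor homologue, stood at 162, 178, 61.5 and 67.4 CPM. For both genes the 2 irradiated libraries were the lower ones. Klf4 stood at 68.8, 253, 206 and 141 CPM and followed no such order. In erythroid cells Irf8 stood at 2.53, 4.97, 1.84 and 8.70 CPM, far under its level in the precursors.

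Between genotypes without irradiation, 9.57% of 4910 tested genes were at least 1.5-fold different (6.64% higher, 2.93% lower in Vegfc-deleted precursors), with a median over all genes of 0.04. Progenitor genes were lower (5 of 7, none higher, median -1.14, and -0.84 without basophil-gene cells), and the same genes had a median of -1.43 in monocytes (5 of 7 lower). Secondary and tertiary granule genes were higher (11 of 12, none lower, median 1.09), against a median of 0.24 for the same genes in erythroid cells; without basophil-gene cells it was 0.88. Monocytes had a median of 1.78 for them. Monocyte genes were higher as well (7 of 15, none lower, median 0.50; 5 of 15 and 0.23 without basophil-gene cells). Their medians were larger in other cells of these libraries, 1.10 in erythroid cells (10 of 15 higher), 1.07 in LepR+ stroma (11 of 15 higher) and 0.75 in monocytes, and the part of free RNA was not tested. Klf4 was 3.68-fold higher (3.13 to 4.34). The monocyte surface protein gene Ly6c2 stood at 878 and 2103 CPM, 2.40-fold higher (2.29 to 2.51), and lysozyme, Lyz2, at 776 and 1942 CPM, 2.504-fold higher (2.38 to 2.63). Within the monocyte side alone, Ly6c2 was 2.40-fold and Lyz2 2.41-fold higher in Vegfc-deleted cells. For monocyte genes the direction in the precursors was thus shared by erythroid, stromal and monocyte cells of the same libraries.

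With irradiation, 20.1% of 4220 genes differed between genotypes by 1.5-fold or more (9.86% higher, 10.2% lower), with 8 cells on the control side. Of the called genes 49.1% were higher in Vegfc-deleted precursors, and 59.7% with TMM scaling. The secondary granule list had a median of 0.02 (2 of 12 higher), which became -0.15 (2 higher, 1 lower) without basophil-gene cells. The monocyte list had a median of -0.08 (2 of 15 lower), and of -0.26 (4 lower) without them. The progenitor list had 1 gene higher and 2 lower, with a median of 0.40 that became 0.01 with Cd34 set to 3 counts in the library where it was at 0, and 0.26 without basophil-gene cells.

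Of the 6 genes highest in Vegfc-deleted precursors under both irradiation states, Prg2 rested on single cells as described. The others were Klf2, Rgcc, Cldn15, Cep128 and Gfi1. Klf2, a Krüppel-like factor that restrains activation, stood at 210, 557, 70.7 and 145 CPM, 2.65-fold higher (2.41 to 2.92) without and 2.05-fold higher (1.35 to 3.25) with irradiation. Rgcc, a cell cycle regulator, stood at 190, 351, 227 and 429 CPM, but erythroid cells held 266, 233, 134 and 146 CPM of it. The 6 lowest, Cyp11a1, Ms4a2, Cd200r3, Mcpt8, Gata2 and Fcer1a, are genes of basophils and mast cells. Fcer1a, the IgE-binding chain of the basophil receptor, stood at 235, 44.3, 298 and 40.2 CPM. These genes followed the share of basophil-gene cells among the precursors, 28.4%, 4.17%, 25% and 4.27%.

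Transcripts of stimulation were lower in irradiated Vegfc-deleted precursors. Of 15 immediate early genes that passed the filter, 13 were lower and none higher than without irradiation (median -1.01), against 6.17% of all tested genes lower. Jun, an AP-1 subunit, stood at 325, 330, 73.8 and 109 CPM, and Egr1, an early growth response factor, at 42.8, 48.1, 246 and 23.8 CPM. In controls the list was mixed, with 7 higher and 5 lower (median 0.15), against 22.5% and 13.6% of all tested genes. Leaving out basophil-gene cells turned the control median to -0.79 (5 higher, 8 lower), with 6 irradiated cells, and left the Vegfc-deleted median at -0.97. Of 8 inflammatory genes, 6 were lower in irradiated Vegfc-deleted precursors (median -1.72), among them the chemokine Ccl4 at 183, 118, 92.2 and 13.7 CPM. In controls 3 were higher and 2 lower (median 0.22), and without basophil-gene cells 1 was higher and 4 lower (median -0.50). Other cells of the same Vegfc-deleted libraries differed among themselves. The immediate early median was -2.41 in LepR+ stroma (15 of 15 lower), -1.01 in monocytes, -0.45 in erythroid cells and -0.39 in secondary-granule neutrophils. The inflammatory median was -2.15 in LepR+ stroma and -2.16 in monocytes, but 0.88 in erythroid cells (4 higher, 3 lower) and -0.04 in secondary-granule neutrophils (3 higher, 2 lower). Immediate early genes also respond to tissue digestion, and handling of the preparations cannot be told apart from the groups.

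**Figure D5:**
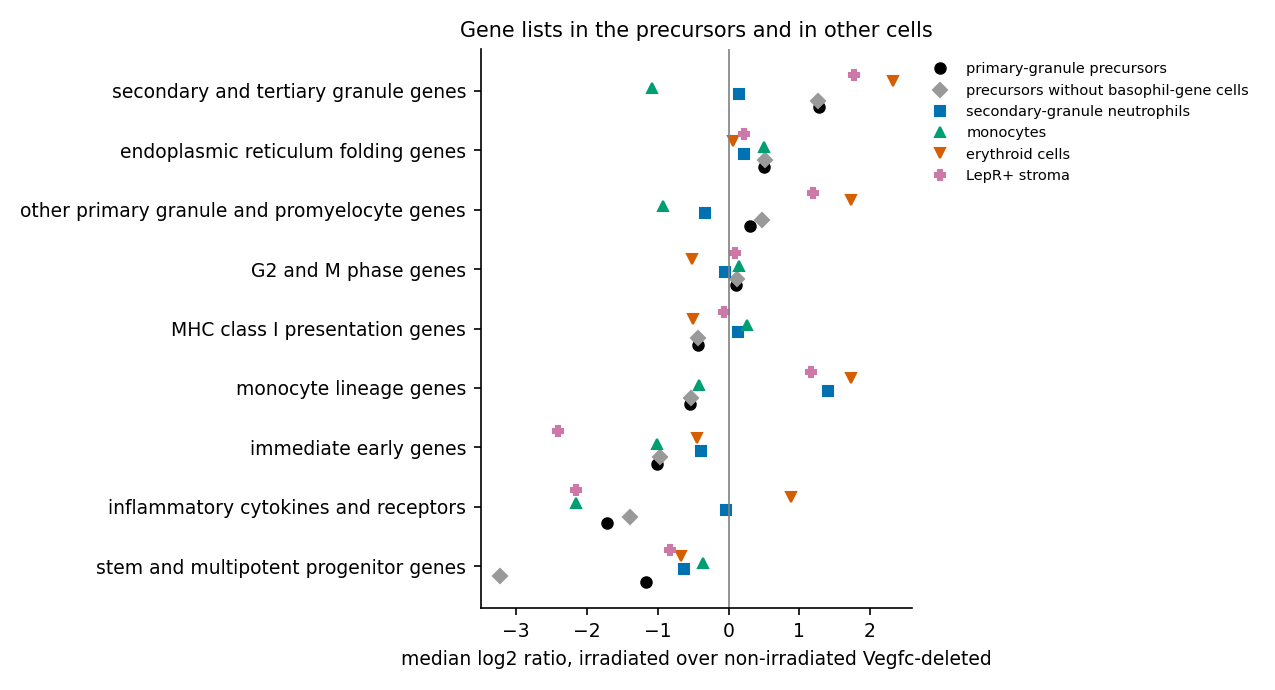
Median log2 ratio (horizontal axis) of 9 gene lists, irradiated over non-irradiated Vegfc-deleted, in the precursors, the precursors without basophil-gene cells and 4 other cell classes. In this contrast the progenitor median is -1.17 in the precursors and -3.22 without basophil-gene cells. It lies between -0.83 (LepR+ stroma) and -0.36 (monocytes) in the 4 other classes. Immediate early genes are lower in LepR+ stroma (-2.41) than in precursors (-1.01).

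Genes of division differed between genotypes without irradiation, and less between irradiation states in Vegfc-deleted mice. Of 20 G2 and M phase genes, all of which passed, 11 were higher and none lower in Vegfc-deleted than in control precursors without irradiation. Their median was 0.62, and 6.64% of all tested genes were higher. Without basophil-gene cells 8 were higher, with a median of 0.54. The same genes had medians of -0.06 in erythroid cells and 0.12 in monocytes. Between genotypes with irradiation, 1 was higher and 4 were lower (median -0.08), with 8 cells on the control side. Over all tested genes, 9.86% were higher and 10.2% lower there. Mki67 stood at 239, 448, 710 and 487 CPM and Top2a, the mitotic topoisomerase, at 352, 558, 861 and 571 CPM. With irradiation in Vegfc-deleted precursors 1 of 20 was higher (median 0.10), against 6.66% of all tested genes, and in controls 14 were higher (median 0.88), against 22.5%. The S phase list had 1 lower of 20 and a median of -0.14 for irradiation in Vegfc-deleted mice, and 7 higher of 19 and a median of 0.20 in controls, where the share over all tested genes was 22.5% higher. At an equal depth, Mki67 had a UMI in 45.6%, 53.03%, 62.5% and 62.9% of precursors.

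Genes of the DNA damage response showed no common direction 7 days after irradiation. Cdkn1a, the p53-induced inhibitor of the cell cycle, stood at 81.2, 95.5, 169 and 54.3 CPM. It was 1.76-fold lower (1.5 to 2.06) in irradiated than in non-irradiated Vegfc-deleted precursors and 2.08-fold higher (1.52 to 2.82) in controls. In the irradiated control, 45 Cdkn1a UMIs came from the 2 cells of neither side. The neutrophil-side, monocyte-side, both-side and basophil-gene cells gave 1, 3, 0 and 6, so the control ratio rests mainly on those 2 cells. Mdm2, another p53 target, stood at 44.4, 41.8, 43.0 and 41.2 CPM, and Ccng1 at 23.6, 20.6, 33.8 and 43.4 CPM. Of 7 p53 targets that passed, 2 were higher and 2 lower in irradiated Vegfc-deleted precursors (median 0.16). Of 12 DNA repair genes 1 was lower (median -0.18). Of 4 interferon response genes none differed by 1.5-fold (median -0.12, and -0.33 without basophil-gene cells), whereas 3 of the 4 were higher in the irradiated control cells (median 1.05). The shares over all tested genes were 6.66% higher and 6.17% lower in Vegfc-deleted mice, and 22.5% higher and 13.6% lower in controls.

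Other programmes of a secretory precursor differed by list and by contrast. Over all tested genes, 6.66% were higher and 6.17% lower with irradiation in Vegfc-deleted mice, and 22.5% and 13.6% in controls. Of 19 endoplasmic reticulum folding genes 4 were higher with irradiation in Vegfc-deleted mice (median 0.49), with Hspa5, the main luminal chaperone, at 975, 708, 968 and 1009 CPM. Monocytes of the same libraries had a median of 0.51 for these genes. Of 17 genes of the NADPH oxidase and antioxidant list 4 were higher (median 0.36), including Cybb, the oxidase catalytic subunit, at 83.2, 185, 307 and 301 CPM. In controls 9 of the 17 were higher and 2 lower (median 0.64). Of 8 MHC class I presentation genes none differed by 1.5-fold with irradiation in Vegfc-deleted mice (median -0.43), and 4 were lower with irradiation in controls (median -0.51). Glycolysis genes were level (1 of 12 higher, median 0.23). Ribosome biogenesis genes were level in Vegfc-deleted mice (1 higher and 1 lower of 18, median -0.06) and lower in the 8 irradiated control cells (13 of 17, median -0.84).

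Across single cells the granule genes moved together. Over precursors without basophil genes, thinned to 3000 UMIs, the correlation of log levels between Elane and Prtn3 was 0.83 in the non-irradiated control (56 cells), 0.88 in the non-irradiated Vegfc-deleted (126 cells) and 0.88 in the irradiated Vegfc-deleted library (111 cells). Mpo and Ctsg correlated at 0.67, 0.77 and 0.81, and Elane and Mpo at 0.56, 0.73 and 0.89. Irf8 and Fcnb correlated weakly and inversely, at -0.30, -0.25 and -0.22. Cells of a library share its preparation, and the rule itself selects on Elane, Mpo and Prtn3, so these values only describe the cells. With the basophil-gene cells included, Prtn3 and Ctsg were uncorrelated in the non-irradiated control, at 0.01 against 0.66 without them.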

How the data were processed

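The authors deposited, for each library, a matrix of unnormalized UMI counts over 31053 features and its barcodes. Per the submitters' processing notes the tools were Cell Ranger 2.1.1 and build mm10, whereas per the file headers the matrix software was 3.1.0. Reads came from 10x 3′ v3.1 libraries of digested tibial marrow. The annotation release and how cells were called were not given in the sources used here. Barcode matrices hold no map to single mice.

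Counts were summed over the precursors of each library and divided by their total (CPM). Log2 ratios used a prior of 0.5 counts, and a gene was called at 1.5-fold. Intervals are exact Poisson, Clopper-Pearson or conditional intervals at 95%, and UMIs cover counting error only. No test was made, since each group has 1 library. For comparisons of detection each cell was thinned to 3000 UMIs, leaving out 2, 12, 0 and 1 shallower precursors. Doublets were kept, and left out as an alternative with Scrublet in scanpy 1.11.5, which marked 10, 21, 2 and 2 precursors. The scripts ran in Python 3.11.15 with numpy 2.4.6 and scipy 1.17.1, edgeR 4.0.16 gave only TMM factors as an alternative scaling, and the scripts were tested on simulated data. Positions come from GENCODE M21 and promoters from RefSeq.

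Named genes passed the filter in all 4 contrasts and lie outside the 8 rule genes, mitochondrial and sex-linked genes. They also had a class CPM of at least 0.5 times that of all kept cells. From them came the 8 highest and the 8 lowest genes by the smaller of both irradiation ratios (same sign in both), the 6 highest and 6 lowest for genotype, and the 15 highest over other kept cells. Members of the gene lists were named in addition. The members and the lists were chosen with earlier results of these data known. Comparison classes used these UMI thresholds: haemoglobin at 5% or more for erythroid cells, 5 or more of Csf1r, Ccr2 and Ms4a6c for monocytes, and 20 or more of Cxcl12 for LepR+ stroma. Alternatives added after the data were seen left out cells with 20 or more basophil UMIs, cells under 10000 UMIs, and Lcn2 from the neutrophil-side score.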

Additional observations from a re-analysis of the deposited data

Results flagged for a closer look

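The log2 ratio of precursor shares with irradiation was -2.902 in controls (8 against 81 cells) and 0.08582 in Vegfc-deleted mice (117 against 144 cells). The signs differ, but the second value has an interval that includes no difference and so has no direction. With erythroid cells left out of the base, and per myeloid cell, the share was lower with irradiation in Vegfc-deleted mice too (ratios of 0.736 and 0.280). The immediate early genes had a median log2 ratio of 0.1505 in controls and -1.013 in Vegfc-deleted precursors. The inflammatory cytokines and receptors had medians of 0.2172 and -1.716. With 1 library per group, none of these differences between genotypes was tested, and each control value rests on 8 irradiated cells. Without the basophil-gene cells the immediate early and inflammatory medians in controls were -0.79 and -0.50, the same direction as in Vegfc-deleted precursors (-0.97 and -1.39), so the opposite directions rested on 2 irradiated and 23 non-irradiated control cells.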

How the results depend on the processing

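No paired analysis was possible because each group has 1 library. Of 38 alternative values for the ratios of shares, 34 moved by less than their counting interval. Leaving out every cell with 5 or more UMIs of any other cell type's markers (Nkg7 among them, which 40, 78, 5 and 84 precursors carry at that level) kept 3, 8, 0 and 3 precursors, and gave a ratio of 0.490 for irradiation in Vegfc-deleted mice and 2.59 for genotype without irradiation. It gave no value for the contrasts with the irradiated control. The latter genotype ratio was 2.31 without basophil-gene cells and 1.26 without cells under 10000 UMIs. The counts of genes called depended on the filter: in the order irradiation in controls, irradiation in Vegfc-deleted mice, genotype without and genotype with irradiation, they were 101, 1256, 887 and 70 after thinning, 643, 183, 133 and 210 at 2-fold, and 934, 326, 243 and 472 at a mean CPM of at least 50. Without a CPM filter they were 2347 for irradiation in Vegfc-deleted mice and 1574 for genotype without irradiation, and with means of per-cell CPM the latter was 755.

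Of 1142 alternative list medians 6 reversed. With a floor of 0.3% of UMIs the genotype difference with irradiation became 0.40 for immediate early genes, in place of -0.996. For basophil markers it became 3.81 in place of -3.00, and it was 3.30 without doublets. The doublet setting left out 2 of the 8 irradiated control precursors, so those cells carried most basophil transcripts of that library. Without basophil-gene cells the genotype difference with irradiation became 0.37 for inflammatory genes, in place of -2.01, when the filter was applied anew. For the same 8 genes as before it was -0.41 (3 higher, 4 lower), which is smaller but no reversal. MHC class II genes with irradiation in Vegfc-deleted mice became -0.91 with a secondary granule share under 0.5% and -0.69 with per-cell means, in place of 0.82. Named genes were put through the alternatives only for irradiation in Vegfc-deleted mice and for genotype without irradiation. Their ratios against the irradiated control were not checked in this way. Of 880 values of named genes 6 reversed, all among the 6 genes lowest in Vegfc-deleted precursors. Without basophil-gene cells these were Cyp11a1 at 0.10 and Ms4a2 at 0.84 for genotype without irradiation, and Mcpt8 at 0.79 for irradiation in Vegfc-deleted mice. For the last contrast Ms4a2 was 0.031 without doublets, and Gata2 was 0.28 with a floor of 40 UMIs and 0.47 after thinning. The cause of these changes was not tested. Depth limits every statement on the irradiated control, where the precursors hold 325307 UMIs against 2500720 to 4582719 in the others.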
